A study of Mus musculus with 11 samples.

Results

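The L1Md features are every feature of the mouse repeat table whose repeat name begins with L1Md. They were grouped as young LINE-1 elements, and their age was not tested. They number 14458 of the 442429 repeat features, under 6 of the 1550 repeat names: L1Md_A, L1Md_T, L1Md_Gf, L1Md_F, L1Md_F2 and L1Md_F3. The RNA came from J1 mouse embryonic stem cells, kept on mitomycin-treated mouse embryonic fibroblast feeders in serum with LIF and taken at day 0. TKO_FL and TKO gave 1 poly(A)-selected library each. The labels of other samples write the TKO genotype as DNMT TKO, so both groups carry mutations of the DNA methyltransferases. The design text writes TKO_FL as TKO+FL, and the labels do not spell out FL. The labels give no clone and no culture for either library. The series holds 11 samples, 3 of RNA and 8 immunoprecipitations of modified DNA, and the third RNA library and the DNA samples were not analysed here. With 1 library per genotype no comparison has a replicate check, and the intervals below are exact 95% binomial intervals that cover counting error only.

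LINE-1 elements are retrotransposons: an internal promoter drives a transcript for an RNA-binding protein and for an endonuclease and reverse transcriptase, and that transcript is copied back into the genome. In the mouse the promoter lies at the 5′ end in repeated units called monomers, whose sequence sets the A, T, Gf and F types, and A, T and Gf include elements that still move. Most copies lost their 5′ end when they inserted and carry no promoter. DNA methylation, the TRIM28 and SETDB1 pathway and the HUSH complex are known to hold LINE-1 transcription down.

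Some genes start inside L1Md sequence, and their promoters show what that sequence looks like at the letter level and how few CpG sites, the targets of the DNA methyltransferases, some of it holds. The RefSeq promoter windows of 300 bases (250 before the start and 50 after, GRCm38.p6) that lie wholly inside an L1Md interval, of genes at 1 TPM or more, number 5, and 4 are printed, each 5′ to 3′ on the strand of the gene, with every CG in capitals:
Fut8, inside L1Md_T, chr12:77409891-77410190, plus strand: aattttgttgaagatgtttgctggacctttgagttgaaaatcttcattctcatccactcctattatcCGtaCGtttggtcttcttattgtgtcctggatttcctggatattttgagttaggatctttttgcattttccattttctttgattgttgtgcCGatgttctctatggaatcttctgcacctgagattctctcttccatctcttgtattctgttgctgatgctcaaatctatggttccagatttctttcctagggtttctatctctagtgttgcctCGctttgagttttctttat
Smn1, inside L1Md_A, chr13:100122955-100123254, plus strand: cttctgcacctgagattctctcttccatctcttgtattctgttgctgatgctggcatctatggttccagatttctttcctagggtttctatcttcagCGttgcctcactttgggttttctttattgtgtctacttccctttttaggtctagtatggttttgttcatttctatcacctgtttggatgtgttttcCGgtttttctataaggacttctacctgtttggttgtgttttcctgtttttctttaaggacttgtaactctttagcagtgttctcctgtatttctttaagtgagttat
Psme2b, inside L1Md_F, chr11:48946361-48946660, minus strand: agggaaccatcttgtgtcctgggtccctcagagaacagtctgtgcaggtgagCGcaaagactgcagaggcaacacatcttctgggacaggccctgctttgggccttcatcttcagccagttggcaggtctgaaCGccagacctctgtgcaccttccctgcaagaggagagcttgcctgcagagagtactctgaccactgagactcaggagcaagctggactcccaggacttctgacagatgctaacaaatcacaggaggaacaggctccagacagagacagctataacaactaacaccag
Zfp982, inside L1Md_F2, chr4:147500436-147500735, plus strand: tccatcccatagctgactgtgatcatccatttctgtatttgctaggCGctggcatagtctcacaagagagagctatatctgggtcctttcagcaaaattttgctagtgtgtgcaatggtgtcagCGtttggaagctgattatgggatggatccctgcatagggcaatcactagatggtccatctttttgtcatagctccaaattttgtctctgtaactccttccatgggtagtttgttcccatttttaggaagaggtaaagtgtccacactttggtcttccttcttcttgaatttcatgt
The windows hold 4 CG in Fut8 and 2 CG in each of Smn1, Psme2b and Zfp982, while the other Fut8 window inside an L1Md_T interval holds 0. Over the 119 windows that overlap an L1Md interval the median is 3 CG, against 7 over all 32851 windows. Only 44 windows lie wholly inside an L1Md interval, and the CG count of the others includes bases outside it. CG was searched as these letters, which read the same on both strands, and at least 1 CG is present in 94.6% of all windows. The Fut8, Smn1 and Zfp982 windows run against the strand of the L1Md interval that holds them, and only the Psme2b window of the 4 runs with it. The Smn1 start lies 474 bases and the Fut8 start 1160 bases from the 5′ end of their intervals. The Zfp982 start lies 5523 bases from that end. These are windows of gene promoters. The monomers of the L1Md elements were not read, so the CpG content of the elements' own promoters is not shown here.

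An L1Md feature is not a single locus. A feature joins up to 21 intervals that carry the same number on different chromosomes, and 1843 features join 21. In all there are 123942 intervals, of which 12825 (10.3%) reach 5000 bases, the size range of elements that kept most of their length. That share differed between the names: it was 19.3% in L1Md_A, 20.9% in L1Md_T, 9.94% in L1Md_Gf, 3.82% in L1Md_F, 5.82% in L1Md_F2 and 5.03% in L1Md_F3. The median interval measured 732 bases. Some elements are split into pieces, since 12368 intervals are directly followed by another of the same name and strand. Gene bodies of the deposited gene table hold 23.9% of the intervals, and 150 intervals overlap an exon. Of the genic intervals with a clear orientation, 11573 run with the gene and 16936, or 59.4%, run against it. The library preparation described in the labels has no step that marks strand, so L1Md transcripts and gene transcripts that run through an L1Md interval cannot be told apart.

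The libraries held 10084490 gene fragments in TKO_FL and 10860312 in TKO, and the repeat table held 1179815 fragments in TKO_FL and 1327700 in TKO. Dnmt1, the maintenance DNA methyltransferase, stood at 1177 TPM in TKO_FL and 54.9 TPM in TKO. The 10 stem cell markers were present in both libraries, with summed levels of 12096 TPM in TKO_FL and 9783 TPM in TKO and none past 2-fold. All 12 primitive endoderm markers were at least 2-fold lower in TKO_FL, with a summed level of 144 TPM against 666 TPM in TKO, and 9 of 10 feeder markers were below TKO, 5 of them past 2-fold. The feeder markers summed to 613 TPM in TKO_FL and 728 TPM in TKO. Without Fn1, the marker above TKO (386 TPM in TKO_FL and 278 TPM in TKO), they summed to 227 TPM in TKO_FL and 451 TPM in TKO. No marker of these lists was at 0, and their part in the L1Md values was not tested. Fewer cells of a type and less RNA per cell cannot be told apart in such bulk libraries.

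L1Md RNA was slightly lower in TKO_FL than in TKO. The features summed to 40902 fragments in TKO_FL and 48517 in TKO. With each fragment scaled by its worth in repeat TPM at equal length, this is 0.906 times the TKO level (interval 0.894 to 0.918). Ratios and log2 folds of summed repeat fragments use that TPM scale unless stated. Relative to gene fragments the log2 fold was -0.139, against -0.142 on the TPM scale. The share of L1Md features in all repeat fragments was 3.47% in TKO_FL and 3.65% in TKO. Summed as TPM, which divides by length and so gives weight to short features, they came to 1830 TPM in TKO_FL and 1904 TPM in TKO, a log2 fold of -0.06. Without the features that hold fractions of a fragment, which leaves 12 L1Md_A and 17 L1Md_T features with signal, the log2 fold was 0.25 by summed TPM and 0.02 (-0.06 to 0.09) by fragments. What part the shared fragments, the mix of names and the weight of short features have in that change was not tested.

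L1Md_A, the name with the highest level per length, had 0.0606 FPKM in TKO_FL and 0.0646 FPKM in TKO, where FPKM is fragments per kb of summed feature length per 1000000 gene fragments. L1Md_T followed with 0.0323 in TKO_FL and 0.0382 in TKO, and L1Md_Gf with 0.0183 in TKO_FL and 0.0229 in TKO. The F type was lower, at 0.00876 in TKO_FL and 0.00968 in TKO for L1Md_F. L1Md_F3 had 0.00734 in TKO_FL and 0.00759 in TKO, and L1Md_F2 had 0.00550 in TKO_FL and 0.00535 in TKO. The order of the names was the same in both libraries. Without features that have an exonic interval, L1Md_F had 0.00494 in TKO_FL and 0.00527 in TKO, below L1Md_F3 with 0.00707 in TKO_FL and 0.00729 in TKO. L1Md_F2 then had 0.00517 in TKO_FL and 0.00506 in TKO, so its order against L1Md_F differed between the libraries. Over all features, the counting intervals of neighbouring names do not overlap within a library. For comparison, the other LINE-1 features together had 0.0153 in TKO_FL and 0.0155 in TKO, which places them between L1Md_Gf and L1Md_F.

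**Figure D1:**
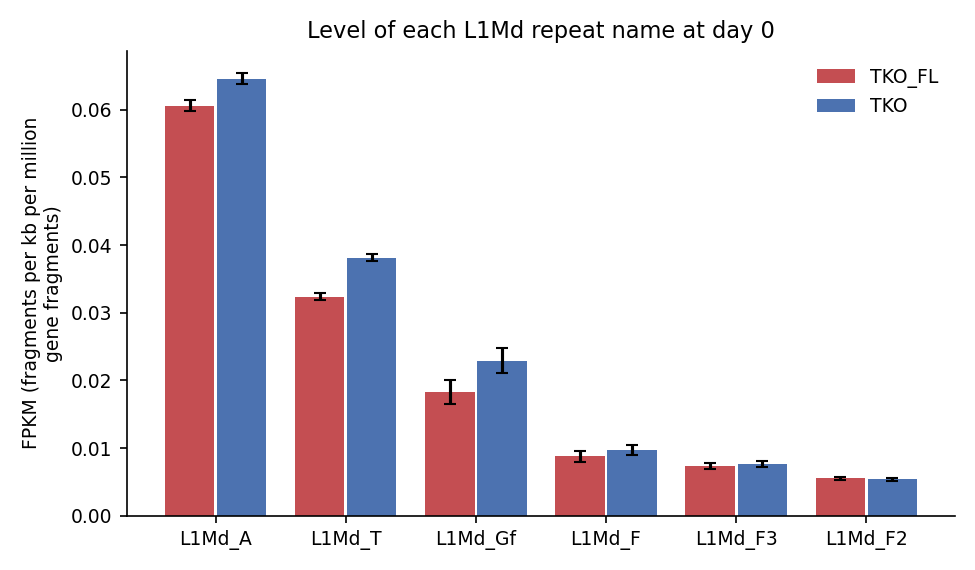
Level of each L1Md repeat name in FPKM (fragments per kb of summed feature length per 1000000 gene fragments), TKO_FL and TKO side by side. Error bars are exact 95% Poisson intervals of the fragments (counting error only), with 1 library per genotype. L1Md_A stands highest in both libraries and L1Md_F2 lowest.

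L1Md_A, L1Md_T and L1Md_Gf, the names with the highest levels, had ratios whose intervals lay below 1. L1Md_T summed to 15440 fragments in TKO_FL and 19619 in TKO, a ratio of 0.846 (0.828 to 0.864), and L1Md_A summed to 19538 in TKO_FL and 22421 in TKO, a ratio of 0.937 (0.919 to 0.955). L1Md_Gf had 427 fragments in TKO_FL and 576 in TKO, a ratio of 0.796 (0.701 to 0.904). The intervals of L1Md_A and L1Md_T do not overlap, while that of L1Md_Gf overlaps the interval of L1Md_T. For L1Md_F the ratio was 0.902 (0.800 to 1.02), for L1Md_F3 it was 0.964 (0.886 to 1.05) and for L1Md_F2 it was 1.03 (0.982 to 1.07). All of these intervals hold a ratio of 1. The ratio of L1Md_F was below that of L1Md_A, but it rests on 504 fragments in TKO_FL and 600 in TKO, which gives a wide interval. How far these ratios differ beyond the spread between cultures was not tested.

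On the scale of log2 of the summed TPM plus 1, none of the 6 names passed 2-fold, against 13.3% of the 969 repeat names with at least 5 TPM in a library (6.60% higher and 6.71% lower in TKO_FL). L1Md_T was at -0.22, L1Md_Gf at -0.23, L1Md_F at -0.17 and L1Md_A at -0.08, while L1Md_F3 was at 0.03 and L1Md_F2 at 0.26. All but L1Md_F2 lie between the quartiles of the repeat names, which were -0.27 and 0.24. The higher value of L1Md_F2 is carried by short features: 11 fragments in TKO_FL and 7 in TKO, in features whose longest interval was under 200 bases, gave 88.1 of its 392 TPM in TKO_FL and 42.5 of its 327 TPM in TKO. By fragments L1Md_F2 had a log2 fold of 0.04.

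IAP elements, long-terminal-repeat retrotransposons known to be held down by DNA methylation, are the contrast within the same table. They had 9126 fragments in TKO_FL and 53505 in TKO, a ratio of 0.183 (0.179 to 0.187). The other LINE-1 features had a ratio of 0.980 (0.968 to 0.991), and the other ERVK features 1.07 (1.06 to 1.08). The L1Md ratio of 0.906 thus lies outside the counting intervals of all of them, far closer to the other LINE-1 features than to IAP.

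**Figure D2:**
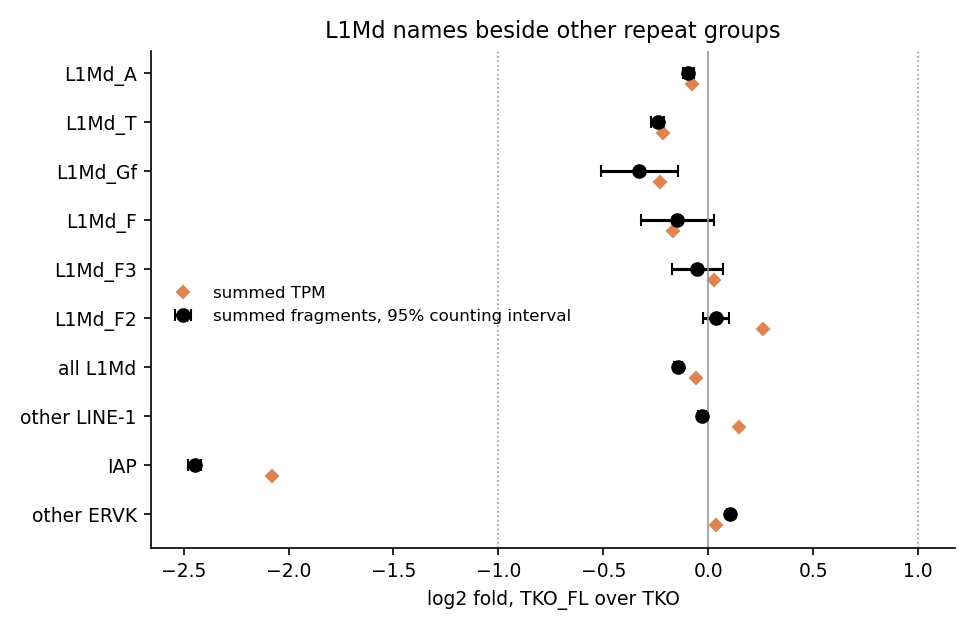
Log2 fold of TKO_FL over TKO for each L1Md name and for other repeat groups. Circles are from summed fragments on the TPM scale, with bars of exact 95% binomial intervals that cover counting error only. Diamonds are from summed TPM. Dotted lines mark 2-fold. Only IAP lies beyond it, at -2.45 by fragments and -2.08 by TPM.

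Most single L1Md features that could be compared stayed within 2-fold. With at least 10 fragments in a library, 1700 of the 14458 L1Md features could be compared, and 23 were at least 2-fold higher and 51 at least 2-fold lower in TKO_FL, together 4.35%, against 20.0% of the 17384 repeat features that met the same minimum, of which 8.21% were higher and 11.8% lower. The minimum keeps features for being high in at least 1 library. Of these 1700, only 50 held whole fragments in both libraries, and 7 of the 50 were higher and 10 lower, together 34.0%, against 20.95% of the 12117 such features over all repeats. Over the 1700 features the median log2 fold was -0.17 with quartiles of -0.42 and 0.08, and 545 features were above 0 and 1155 below. In the other LINE-1 features 93 of 773 were higher and 96 lower, with a median of -0.01. In IAP 1 of 566 was higher and 516 lower, with a median of -2.72.

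By name the features followed the summed levels. Among L1Md_T features 200 were above 0 and 609 below, with 2 higher and 29 lower at 2-fold and a median of -0.25. Among L1Md_A features 288 were above 0 and 474 below, with 6 higher and 5 lower at 2-fold and a median of -0.09. L1Md_Gf had 2 features above 0 and 19 below, with 3 lower at 2-fold. L1Md_F2 and L1Md_F3 features scattered to both sides. At 2-fold, 9 of 74 L1Md_F2 features were higher and 10 lower, and 6 of 24 L1Md_F3 features were higher and 4 lower. Of 10 L1Md_F features, 2 were above 0 and 8 below, and 0 passed 2-fold. The interval of a feature lay above 0 for 11 of the 1700 and below 0 for 41, and for 3 features, all of L1Md_F2, it lay wholly beyond 2-fold.

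**Figure D3:**
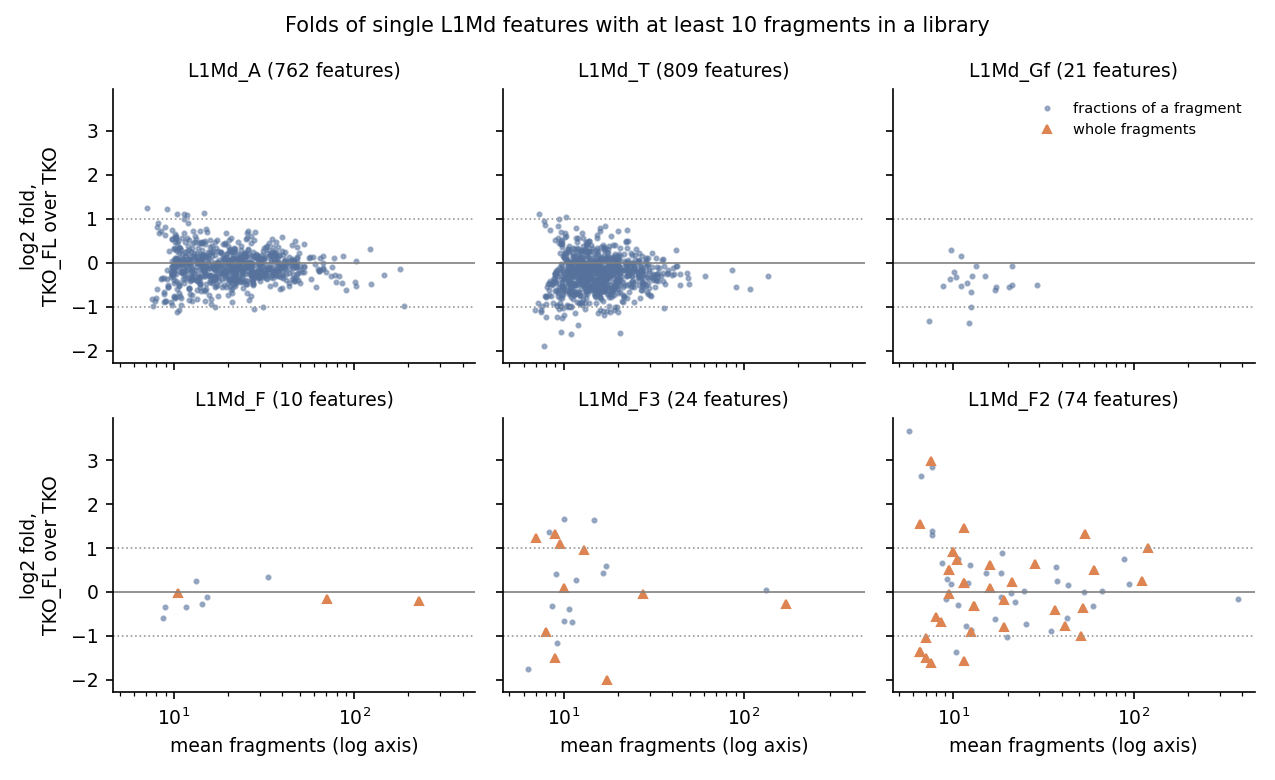
Log2 fold of TKO_FL over TKO for each L1Md feature with at least 10 fragments in a library, against its mean fragments over both libraries on a log axis, by repeat name. Triangles are features with whole fragments in both libraries, dots hold fractions of a fragment, and dotted lines mark 2-fold. L1Md_T and L1Md_A features form a tight cloud with medians of -0.25 and -0.09, while L1Md_F2 and L1Md_F3 features spread widely.

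How the fragments were placed differs by name. Whole fragments in both libraries were found for 0.802% of the L1Md_A features with signal, 0.866% of L1Md_T, 2.30% of L1Md_Gf, 27.3% of L1Md_F, 45.3% of L1Md_F2 and 39.5% of L1Md_F3. Over all L1Md features it was 18.9%, against 86.8% for the other LINE-1 features, 15.2% for IAP and 85.1% for all repeats. The values of L1Md_A and L1Md_T features therefore rest mostly on fragments that were divided. Whether they were divided among copies or among overlapping features is not stated, and such a value cannot be assigned to 1 copy. Features with whole fragments in both libraries summed to 2737 fragments in TKO_FL and 2909 in TKO, a log2 fold of 0.02. Features with fractions summed to 38165 in TKO_FL and 45608 in TKO, a log2 fold of -0.15.

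Features that include long copies carried most of the signal. Features whose longest interval reaches 5000 bases numbered 5962 and held 37893 of the 40902 fragments in TKO_FL and 45310 of the 48517 in TKO. They also held 139 of the 173 Mb of summed L1Md feature length. Their level was 0.0270 FPKM in TKO_FL and 0.0300 FPKM in TKO, with a log2 fold of -0.15 (-0.17 to -0.13). Features with a longest interval from 2000 to under 5000 bases had 0.00968 in TKO_FL and 0.00953 in TKO, and their log2 fold was 0.02 (-0.07 to 0.10). From 1000 to under 2000 bases the log2 fold was -0.08 (-0.27 to 0.11), and from 500 to under 1000 bases it was 0.05 (-0.15 to 0.26). Below 200 bases only 8 of 538 features had any signal.

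L1Md_A, L1Md_T and L1Md_Gf had their highest level per length in the longest class. L1Md_A had 0.0622 FPKM in TKO_FL and 0.0664 in TKO where the longest interval reached 5000 bases, and 0.0307 in TKO_FL and 0.0319 in TKO in the class below, from 2000 bases. L1Md_Gf had 0.0257 in TKO_FL and 0.0329 in TKO in the longest class, and 0.00708 in TKO_FL and 0.00724 in TKO in the class below it. L1Md_F2 had 0.00489 in TKO_FL and 0.00484 in TKO in the longest class, and 0.00800 in TKO_FL and 0.00755 in TKO in the class below. L1Md_F had 0.00713 in TKO_FL and 0.00772 in TKO in the longest class, against 0.0130 in TKO_FL and 0.0145 in TKO in the class below, where 205 of its 295 TKO_FL fragments come from the feature L1Md_F_dup180. In the longest class the log2 fold was -0.24 (-0.27 to -0.21) for L1Md_T, -0.36 (-0.56 to -0.17) for L1Md_Gf and -0.10 (-0.12 to -0.07) for L1Md_A. The difference between length classes was not tested, and a joined feature also holds shorter intervals than its longest.

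**Figure D4:**
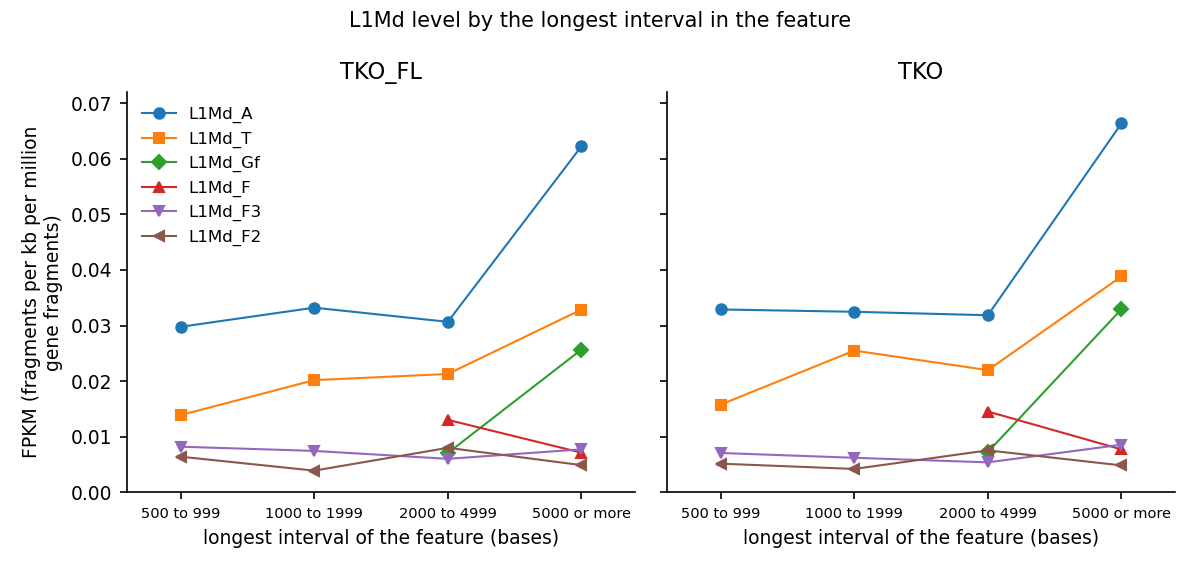
Level of each L1Md name by the longest interval in the feature, in FPKM, with TKO_FL on the left and TKO on the right. Classes with under 10 fragments in both libraries are not drawn. L1Md_A, L1Md_T and L1Md_Gf stand highest in the class of 5000 bases or more, at 0.0622, 0.0329 and 0.0257 in TKO_FL.

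The features with the most fragments were of several names. L1Md_F2_dup455, with 21 intervals, had 347 fragments in TKO_FL and 414 in TKO. L1Md_F_dup180 had 205 in TKO_FL and 254 in TKO, all whole, and L1Md_F3_dup338 had 149 in TKO_FL and 193 in TKO. The intervals of these 3 folds hold 0. L1Md_F_dup180 has an interval at chr4:86932028-86932502 (mm10, plus strand) that overlaps an exon of Acer2, a ceramidase gene on the same strand with 12.7 TPM in TKO_FL and 18.9 TPM in TKO.

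Among the 10 features with the most fragments, only L1Md_A_dup463 and L1Md_A_dup119 had intervals that leave out 0. L1Md_A_dup463 joins 18 intervals and had 120 fragments in TKO_FL and 256 in TKO, a log2 fold of -0.98 (-1.31 to -0.67). Of the genes whose bodies hold its intervals, the most highly expressed were Gng12, a G protein gamma subunit with 12.5 TPM in TKO_FL and 9.85 TPM in TKO, and Nbeal1, with 4.79 TPM in TKO_FL and 4.53 TPM in TKO. L1Md_A_dup119 had 99.4 fragments in TKO_FL and 149 in TKO, a log2 fold of -0.48 (-0.87 to -0.11). Of the others in the 10, L1Md_A_dup365 was the one furthest above 0, with 130 fragments in TKO_FL and 113 in TKO, while L1Md_A_dup285, L1Md_A_dup429 and L1Md_T_dup1396 were below 0 and L1Md_F3_dup340 was at 0.04.

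With at least 30 fragments in a library, 344 L1Md features remained, of which 1 was 2-fold higher and 5 were 2-fold lower in TKO_FL, together 1.74%, against 12.3% of the 7414 repeat features at that minimum. The highest fold was that of L1Md_F2_dup3551, with 76 whole fragments in TKO_FL and 32 in TKO, a log2 fold of 1.32 (0.74 to 2.00). It has a 58-base interval at chr1:118683637-118683694 (mm10, minus strand) that overlaps an exon of Tfcp2l1, a transcription factor of naive pluripotency, which had 66.0 TPM in TKO_FL and 36.6 TPM in TKO. How many of the fragments come from Tfcp2l1 cannot be told apart. L1Md_F2_dup1742 had 157 fragments in TKO_FL and 84 in TKO (log2 fold 1.00, 0.61 to 1.41), and L1Md_F2_dup1806 had 108 in TKO_FL and 68 in TKO (0.76, 0.32 to 1.23). Next came L1Md_A_dup627 at 0.73 and L1Md_A_dup754 at 0.69, whose intervals hold 0.

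The lowest fold was that of L1Md_T_dup592, with 9.10 fragments in TKO_FL and 32.0 in TKO, a log2 fold of -1.61 (-2.98 to -0.63). The others were L1Md_A_dup835 with 16.9 fragments in TKO_FL and 38.6 in TKO, L1Md_T_dup348 with 22.3 in TKO_FL and 50.1 in TKO, and L1Md_A_dup433 with 19.4 in TKO_FL and 42.8 in TKO, at log2 folds of -1.04, -1.03 and -1.01. L1Md_F2_dup550 had 32 whole fragments in TKO_FL and 70 in TKO, also past 2-fold. All 5 intervals leave out 0. Gtf2f2, a general transcription factor subunit whose body holds an interval of L1Md_T_dup592, had 115 TPM in TKO_FL and 112 TPM in TKO.

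Features of 1 interval are the closest to single copies. There are 3910 of them, 3750 on chromosome X and 160 on Y, and 12, all on X and of 5788 to 7577 bases, had at least 10 fragments in a library. Of these, 5 were L1Md_A and 7 L1Md_T, 9 were below 0 and 3 above, with log2 folds from -0.67 to 0.19, and all 12 intervals hold 0. L1Md_A_dup1619 (chrX:144115844-144122053, mm10, outside the gene bodies used) had 24.1 fragments in TKO_FL and 22.6 in TKO. L1Md_T_dup2031 (chrX:141561115-141568691, mm10, minus strand) lies in an intron of Col4a5, a collagen IV chain gene on the plus strand, and had 22.02 in TKO_FL and 23.3 in TKO. L1Md_T_dup2356 (chrX:167213364-167219214, mm10) had 8.80 in TKO_FL and 15.7 in TKO. All 12 hold fractions of a fragment, so they too rest on divided fragments. Summed over the features of 1 interval, there were 651 fragments in TKO_FL and 790 in TKO, a log2 fold of -0.17, while by summed TPM it was 0.06.

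Features were also summed by their position relative to genes. Those with no interval in a gene body summed to 2267 fragments in TKO_FL and 2676 in TKO, a log2 fold of -0.14, the value of all L1Md features. Those with an exonic interval summed to 1159 fragments in TKO_FL and 1323 in TKO, a log2 fold of -0.09 (-0.20 to 0.03). By summed TPM the exonic features ran the other way, with 111 TPM in TKO_FL and 84.0 TPM in TKO, a log2 fold of 0.40. Of the 37 compared features with an exonic interval 1 was higher and 2 were lower, with a median of -0.19, against -0.17 in the others. L1Md_F2_dup488, with 12 fragments in TKO_FL and 27.5 in TKO, overlaps an exon of Slc18b1, a vesicular transporter gene at 4.06 TPM in TKO_FL and 10.9 TPM in TKO. Host genes did not all move with their features. Snhg14 had 4.13 TPM in TKO_FL and 2.44 TPM in TKO, while L1Md_T_dup590 over its exon had 8.57 fragments in TKO_FL and 17.1 in TKO. H2-Q4 had 12.3 TPM in TKO_FL and 3.10 TPM in TKO, while L1Md_A_dup110 over its exon had a log2 fold of -0.11.

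Genes whose promoter window overlaps L1Md sequence were compared as well. RefSeq promoter windows of 114 genes overlap an L1Md interval, some by a few bases only, so that the start itself can lie outside it. Of these, 35 are in the gene table and 11 had at least 1 TPM, with 1 higher and 0 lower at 2-fold and a median log2 fold of 0.24, against 6.64% of 13642 genes past 2-fold (3.58% higher and 3.06% lower). Psme2b, a gene of the proteasome activator family whose window is printed above, was the higher one, at 84.6 TPM in TKO_FL and 34.5 TPM in TKO, a log2 fold of 1.27 (interval 1.03 to 1.55). The feature that holds its promoter, L1Md_F_dup54, had 9.87 fragments in TKO_FL and 13.6 in TKO. Fut8, a fucosyltransferase, had 9.67 TPM in TKO_FL and 13.2 TPM in TKO. Smn1, needed for the assembly of splicing particles, had 116 TPM in TKO_FL and 148 TPM in TKO, and Zfp982, a zinc finger gene, had 17.6 TPM in TKO_FL and 23.8 TPM in TKO. These levels are of whole genes, of which Fut8, Smn1 and Zfp982 have other promoters too. A level is uncertain where reads also fit a near-identical copy of the gene, and which of these genes have one was not tested.

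Genes known to control LINE-1 elements mostly stayed within 2-fold. Of 67 listed, 66 were in the table and 63 had at least 1 TPM, with a median log2 fold of 0.01 against 0.00 over all genes. Of these 63, 1 was higher and 1 lower, against 3.58% higher and 3.06% lower of 13642 genes. Dnmt1 was the higher one, at a log2 fold of 4.40, and Dnmt3b, a de novo methyltransferase, the lower one, at 17.6 TPM in TKO_FL and 36.9 TPM in TKO. Dnmt3a, the other de novo enzyme, had 8.12 TPM in TKO_FL and 7.85 TPM in TKO, and their cofactor Dnmt3l had 330 TPM in TKO_FL and 533 TPM in TKO. Uhrf1, a protein that recruits DNMT1 to newly replicated DNA, had 299 TPM in TKO_FL and 345 TPM in TKO. Trim28, a corepressor, had 1178 TPM in TKO_FL and 1568 TPM in TKO, and its partner Setdb1, a histone methyltransferase, had 64.1 TPM in TKO_FL and 77.5 TPM in TKO. Mphosph8, a HUSH subunit, had 74.4 TPM in TKO_FL and 85.6 TPM in TKO, and Morc2a, which works with HUSH, had 65.5 TPM in TKO_FL and 60.1 TPM in TKO. Of 2 other HUSH subunits, Tasor had 29.4 TPM in TKO_FL and 45.2 TPM in TKO, a log2 fold of -0.60 (-0.73 to -0.51). Pphln1 had 25.3 TPM in TKO_FL and 24.9 TPM in TKO, a log2 fold of 0.03 (-0.15 to 0.20). L1td1, a pluripotent-cell gene derived from a LINE-1 open reading frame, had 711 TPM in TKO_FL and 881 TPM in TKO.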

How the data were processed

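RNA-seq values of TKO_FL and TKO, 1 library each, were taken from the columns named d0_TKO67 for TKO_FL and d0_TKO for TKO. The sample descriptions carry these column names, and the sample labels give the genotype. Per the submitters' processing notes, the tools include HISAT2, featureCounts, Subread, SAMtools and Trim Galore, with the mm10 genome and no stated versions. The deposited gene and repeat signal tables, which the authors named TPM, were divided by 10, since the gene columns sum to 10 times 1000000. Multiplied by length, repeat values fell on steps of 0.01 fragment, and 84.8% in TKO_FL and 85.0% in TKO of values with signal were whole (tolerance 0.001). The sources used here name no repeat annotation and no counting command. Each table also has 11 columns that match none of these samples and were not used.

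Log2 folds used a pseudocount of 1 TPM, or of 1 fragment for features, a minimum of 5 TPM (names), 10 fragments (features) or 1 TPM (genes), and a threshold of 2-fold, over the whole table. Exact 95% binomial intervals were computed from fragments rounded to whole numbers, without a pseudocount. Fragments are not independent molecules where PCR duplicates remain, so intervals cover counting error only. For features that hold fractions of a fragment, the rounded sum is not a count of separate fragments, and the interval is approximate. Gene bodies over 2500000 bases were left out. Named features are the 10 with the most fragments and, with at least 30 fragments, the 5 highest and 5 lowest folds. Single-copy features, exonic examples, promoters, host genes, Tasor and Pphln1 were chosen after their values were seen. The members and lists were chosen with earlier results of these data known. The 2-fold call of single features was tested on simulated whole counts with changes larger than 2-fold. Divided fragments, summed levels and smaller changes were not simulated. All steps were run with scipy 1.17.1, pandas 2.3.3 and numpy 2.4.6 under Python 3.11.15. Alternatives covered pseudocounts, minimums, scale, feature length and shared fragments.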

Additional observations from a re-analysis of the deposited data

How the results depend on the processing

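None of the 6 names passed 2-fold in any of the 72 settings over the names. Of these 72, 55 stayed close to the reported value and 17 moved, and L1Md_A, L1Md_F and L1Md_T were below 0 in all 12 of theirs. The 55 include settings that could not move the value. A summed level uses no minimum, so dropping the minimum repeats it for every name. Leaving out features under 200 bases also repeats it for L1Md_A, L1Md_T, L1Md_Gf and L1Md_F, which have no signal there. L1Md_A ran from -0.97 to -0.03. Its lowest value, without features that hold fractions, rests on 9 fragments in TKO_FL and 16 in TKO. L1Md_Gf was above 0 in 2 settings, up to 0.14 in features of 1 interval. L1Md_F3 ran from -0.75 to 0.11. Its lowest value, in features of 1 interval, rests on 9 fragments in TKO_FL and 4 in TKO. By fragments that set had a log2 fold of 1.27 (-0.57 to 3.43), past 2-fold the other way. L1Md_F in features of 1 interval had 1 fragment in TKO_FL and 4 in TKO, a log2 fold of -1.90 (-7.52 to 1.44) by fragments. The log2 fold of all L1Md features, -0.06 by summed TPM, was -0.14 as fragments relative to gene fragments, -0.10 with features of at least 1000 bases and -0.093 without those under 200 bases. It was 0.25 without features that hold fractions of a fragment. In alternatives chosen after seeing the data it was -0.083 without exonic features, -0.14 with fragments on the TPM scale and 0.062 in features of 1 interval. Features 2-fold higher and lower, 23 and 51 of 1700, were 74 and 110 of 2491 at a minimum of 5 fragments (7.39%, against 31.7% of all repeats), 1 and 5 of 344 at 30 (1.74%, against 12.3%), and 623 and 443 of 4898 at 1 (21.8%, against 45.0%). They were 8 and 11 of 1700 with a pseudocount worth 5 fragments (1.12%, against 12.1%). Without features that hold fractions they were 7 and 10 of 50, a share of 34.0%, against 20.95% of all repeats. Control genes 2-fold higher were 2 with a pseudocount of 0.1 TPM, and those lower were 0 with one of 5 TPM. The causes were not tested. No paired analysis was possible because each genotype has 1 library. The counting interval holds 0 for 1648 of the 1700 features compared and for 322 of the 344 with at least 30 fragments. Only 50 of the 1700 hold whole fragments in both libraries. For the others the interval treats a rounded sum of divided fragments as a count and is approximate.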
